A study of Mus musculus with 5 samples.

Results

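Complement and Fc receptor genes encode the machinery by which phagocytes recognise and engulf tagged material. The classical complement pathway opens when C1q, built from the A, B and C chains encoded by C1qa, C1qb and C1qc, binds antibody or a damaged surface, after which C4 and then C3 are cleaved and their fragments are deposited on the target. The deposited C3 fragments are bound by integrin receptors such as CR3, of which Itgam encodes the alpha chain (CD11b), while the released fragment of C3 acts on the receptor encoded by C3ar1. Antibody bound to a target is read by Fc receptors, which signal through the common gamma chain encoded by Fcer1g, and Fcgr3 encodes one of the IgG receptors that depend on it. Serping1 encodes the C1 inhibitor, which restrains the proteases of the first step. In the brain, microglia are the main source of C1q and of the receptors, and microglial complement is known for its part in synapse removal.

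These 10 genes (C1qa, C1qb, C1qc, C3, C4b, Itgam, C3ar1, Fcer1g, Fcgr3 and Serping1) were followed in RNA that was pulled down on tagged ribosomes from mouse midbrain, out of 53700 gene IDs counted. They were chosen by name as complement components, receptors and a regulator together with the Fc receptor gamma chain, with the strong rises of C1qa and Fcer1g between the groups already known. The difference between the groups is therefore a description for all 10. No p-value is given for any of them, and where the number that passed the call is printed it supports nothing, since it comes from the contrast that chose them.

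The mice were C57BL/6, aged 4 months, and all carried the L10a transgene, which gives a ribosomal protein an EGFP tag once Cre recombinase is present. All received AAV:THCre in the midbrain, a virus that expresses Cre from a tyrosine hydroxylase promoter, so the tag was directed at dopaminergic (DAergic) neurons and Cre was present in both groups. Esrrg encodes the nuclear receptor ERRγ, and its exon 2 is excised by Cre in the Esrrg Flox group, whereas the Esrrg WT group has no floxed alleles. Tissue was taken 1 month after the deletion, and midbrains of several mice were pooled for each library. Esrrg WT was sequenced in 3 libraries (numbered 2, 3 and 4) and Esrrg Flox in 2 (numbered 2 and 4). Cells without Cre carry no tag, and the pulldown was not designed to recover their RNA. The libraries held between 20635855 and 23105058 counts assigned to genes, and a count of 0 allows a level of up to 3 counts, or 0.130 to 0.145 CPM depending on the library.

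Esrrg itself was at 1763, 1643 and 1726 normalized counts (counts divided by the library's DESeq2 size factor) in WT replicates 2, 3 and 4, and at 1504 and 1170.1 in Flox replicates 2 and 4. Both Flox libraries lay below all WT libraries, with a log2 fold change of -0.35 (SE 0.13, DESeq2 adjusted p = 0.0734), so the gene count did not pass the test of a difference. Loss of exon 2 alone was not measured by counts over the whole gene. Th, which encodes the enzyme that marks DAergic neurons, was abundant in every library (9849 to 12813 normalized counts). The 12 DAergic markers summed to 51558 to 61481 in WT and to 52537 and 55254 in Flox, led by Aldh1a1. Glial RNA was also present, since the 9 astrocyte markers, led by Aldoc, summed to 74828 to 109197 over the 5 libraries. The 10 complement and Fc receptor genes together took 0.0227% to 0.0274% of the counts in WT, 0.0347% in Flox replicate 2 and 0.069% in Flox replicate 4.

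Promoter sequence was available for 7 of the 10 genes, as the 250 bases before the start in RefSeq (GRCm38.p6), and C1qa, C4b and Serping1 had no entry. The 5 windows shown belong to genes that were higher together in Flox. C3ar1 was also higher in Flox, but its window, which held none of the marked letters, is not shown. Capitals mark the letters GAGGAA, or TTCCTC where they lie on the opposite strand. These letters are the core bound by PU.1, a transcription factor of the myeloid lineage. Each window runs 5′ to 3′ along the strand of its gene and ends at the base before the start, and that of Fcgr3 is for 1 of the 2 starts in the table.
C1qb (chr4:136886201-136886450, minus strand): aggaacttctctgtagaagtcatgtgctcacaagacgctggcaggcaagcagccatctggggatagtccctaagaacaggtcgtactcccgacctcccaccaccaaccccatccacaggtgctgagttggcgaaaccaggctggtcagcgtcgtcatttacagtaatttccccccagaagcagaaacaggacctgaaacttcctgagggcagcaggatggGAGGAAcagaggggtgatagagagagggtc
C1qc (chr4:136892915-136893164, minus strand): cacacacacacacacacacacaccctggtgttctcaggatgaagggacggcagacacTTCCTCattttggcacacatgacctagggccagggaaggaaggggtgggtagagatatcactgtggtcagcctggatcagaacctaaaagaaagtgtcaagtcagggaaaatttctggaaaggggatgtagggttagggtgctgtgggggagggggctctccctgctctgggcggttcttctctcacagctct
Itgam (chr7:128062390-128062639, plus strand): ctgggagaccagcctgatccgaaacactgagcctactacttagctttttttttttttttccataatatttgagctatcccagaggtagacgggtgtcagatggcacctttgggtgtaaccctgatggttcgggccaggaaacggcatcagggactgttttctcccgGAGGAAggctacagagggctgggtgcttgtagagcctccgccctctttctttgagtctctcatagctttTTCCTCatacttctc
Fcer1g (chr1:171234350-171234599, minus strand): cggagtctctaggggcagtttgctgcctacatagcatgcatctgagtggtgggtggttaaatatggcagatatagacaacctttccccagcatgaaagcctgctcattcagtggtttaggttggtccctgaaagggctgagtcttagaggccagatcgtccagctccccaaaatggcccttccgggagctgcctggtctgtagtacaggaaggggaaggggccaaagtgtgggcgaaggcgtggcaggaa
Fcgr3 (chr1:171059404-171059653, minus strand): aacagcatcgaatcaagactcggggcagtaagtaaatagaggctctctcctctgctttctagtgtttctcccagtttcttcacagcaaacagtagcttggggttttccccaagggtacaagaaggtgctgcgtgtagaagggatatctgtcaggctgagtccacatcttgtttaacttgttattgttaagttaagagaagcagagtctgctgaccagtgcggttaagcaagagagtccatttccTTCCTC

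The core was found in 4 of the 7 windows on either strand, namely those of C1qb (first base 30 bases before the start), C1qc (193), Itgam (84 and 15) and Fcgr3 (6). It was not found in the windows of Fcer1g, C3ar1 and C3. Over all 27025 RefSeq windows of this length, 23.1% held it. The letters TCAAGGTCA, a response element for ERR family receptors, were in 0 of the 7 windows on either strand and in 0.366% of all windows. A match describes the letters only, and the missing letters say nothing about binding outside these windows.

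C1qa, C1qb and C1qc, the C1q chains, were all higher in both Flox libraries than in any WT library. C1qa was at 626.9, 742.9 and 376.6 normalized counts in WT replicates 2, 3 and 4, and at 1598 and 4044 in Flox replicates 2 and 4. Flox replicate 4 stood far above Flox replicate 2, and the gap between the lower Flox and the higher WT library was 2.15-fold. The group means were 582.1 ± 187 (SD, n = 3) and 2821 ± 1730 (SD, n = 2), a log2 fold change of 2.28 (SE 0.58). C1qb was at 427.7, 530.9 and 232.5 in WT and at 1020.2 and 2177 in Flox, with a log2 fold change of 2.01 (SE 0.58). C1qc was at 327.7, 428.0 and 207.5 in WT and at 855.0 and 1893 in Flox, with a log2 fold change of 2.10 (SE 0.55). The chains shared one order of libraries, with WT replicate 4 lowest, then WT replicates 2 and 3, then Flox replicates 2 and 4.

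The proportions of the chains were similar in all libraries, although their sum was not. Per kilobase of exon, C1qa made up 51.7%, 50.2% and 53% of the C1q counts in WT and 52.7% and 56.6% in Flox. C1qb made up 31.3% to 34.3% in WT, against 32.2% and 29.1% in Flox. C1qc made up 14.6% to 15.7% in WT, against 15.2% and 14.3%. In Flox replicate 2 all 3 shares lay within the WT range, and Flox replicate 4 had more C1qa and less C1qb and C1qc than any WT library. The summed normalized counts of the chains were 1382, 1702 and 817 in WT and 3473 and 8114 in Flox, which is 0.00368% to 0.00791% of all counts in WT, 0.0158% in Flox replicate 2 and 0.0357% in Flox replicate 4.

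**Figure D1:**
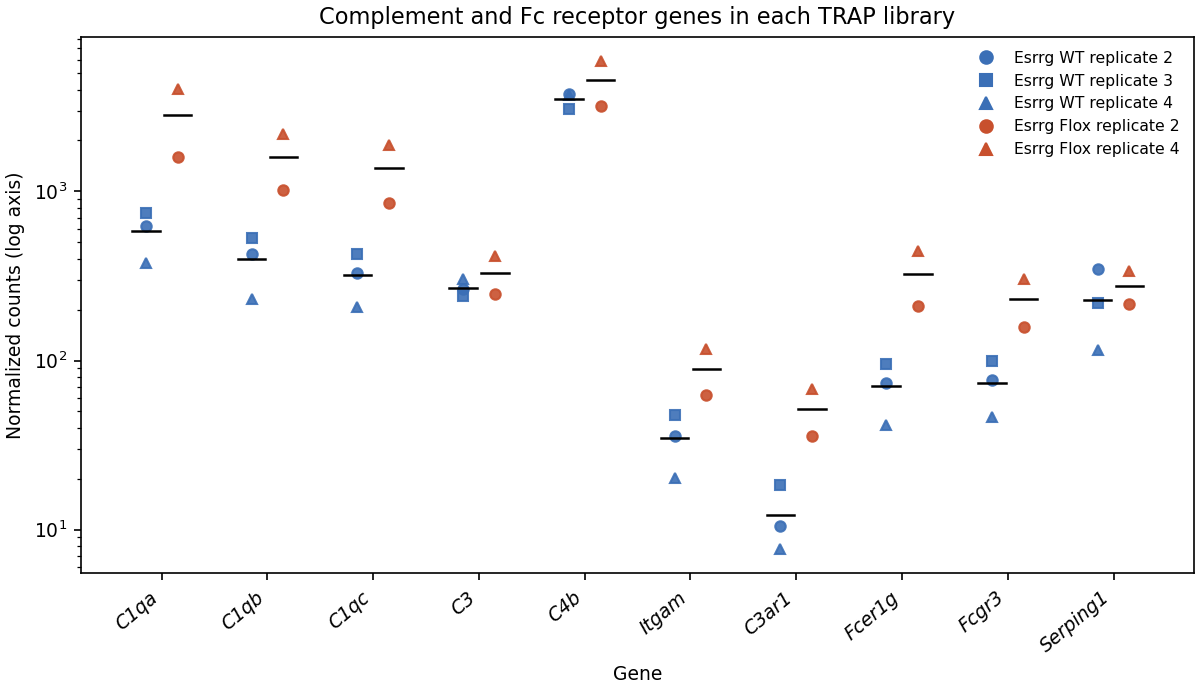
Normalized counts (log axis) of the 10 complement and Fc receptor genes in each library, with WT in blue, Flox in red, a symbol for each replicate number and a bar at the group mean. In C1qa, C1qb, C1qc, Itgam, C3ar1, Fcer1g and Fcgr3 both Flox libraries sit above all WT libraries, and in C3, C4b and Serping1 the groups overlap.

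**Figure D2:**
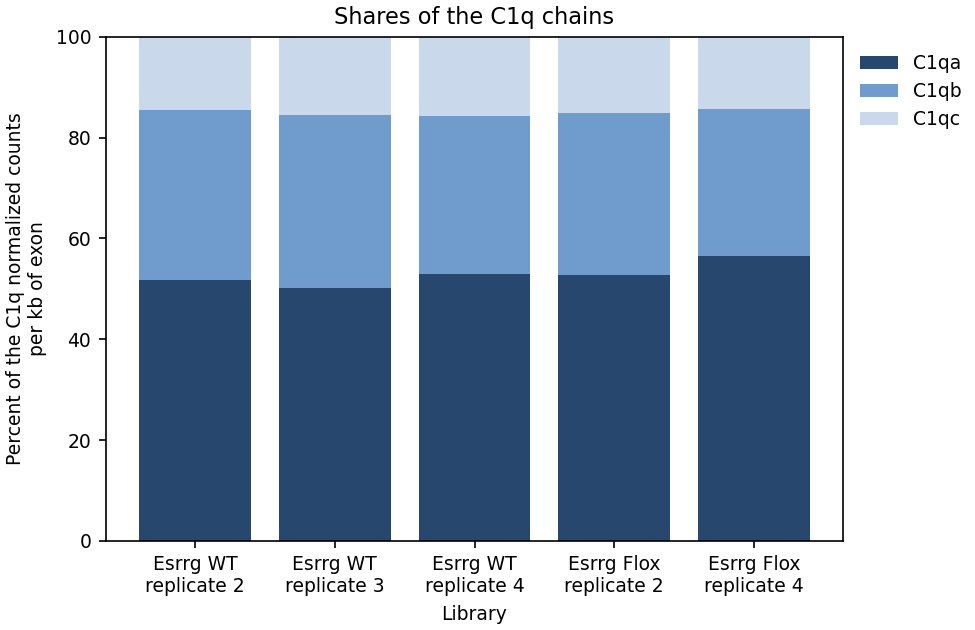
Share of each C1q chain in the C1q normalized counts per kilobase of exon, as stacked bars from 0 to 100%, for each of the 5 libraries. C1qa holds between 50.2% and 56.6% in every library, although the summed level differs from 817 to 8114 normalized counts.

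C3 and C4b, the central components that are cleaved after C1q has bound, overlapped between the groups. C3 was at 266.5, 239.5 and 301.7 normalized counts in WT and at 248.8 and 412.6 in Flox. C4b was at 3770, 3050 and 3689 in WT and at 3217 and 5889 in Flox. In both genes Flox replicate 2 lay within the WT range and Flox replicate 4 above it. The log2 fold changes were 0.30 (SE 0.23) for C3 and 0.38 (SE 0.34) for C4b, and without Flox replicate 4 they were -0.12 and -0.13. C4b has a close relative, C4a, with which it shared 22.7% of the 75-base words of its exons, so its count is uncertain where reads fit both. C4a itself held between 1.92 and 8.43 normalized counts per library.

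Itgam and C3ar1, the receptors for C3 fragments, were higher in both Flox libraries. Itgam was at 35.8, 47.9 and 20.2 normalized counts in WT and at 62.4 and 116.3 in Flox, a log2 fold change of 1.37 (SE 0.44). Its gap between the lower Flox and the higher WT library was 1.30-fold, the smallest of the 7 genes whose groups did not overlap. In GENCODE release M21 a second gene model on the same strand, Gm49368, covers 68.7% of the Itgam exons and shared 65.2% of its 75-base words, and it had 0 counts in all 5 libraries, so how reads in the shared exons were counted is not known. C3ar1 rested on few reads, 10, 18 and 8 in WT and 37 and 68 in Flox, which are 10.5, 18.3 and 7.69 normalized counts against 35.5 and 67.6. Its log2 fold change of 2.08 (SE 0.57) was close to those of the C1q chains.

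Fcer1g and Fcgr3, the Fc receptor genes, followed the same order of libraries as the C1q chains. Fcer1g, the signalling chain, was at 73.7, 95.8 and 41.3 normalized counts in WT and at 209.4 and 442.4 in Flox. Its lower Flox library was 2.19-fold above its highest WT library, the widest gap among the 10 genes, and the log2 fold change was 2.21 with the smaller SE of 0.35. Fcgr3, the low-affinity IgG receptor, was at 76.9, 98.8 and 46.1 in WT and at 157.5 and 302.2 in Flox, a log2 fold change of 1.64 (SE 0.35). It shared 5.42% of its 75-base words with Fcgr2b.

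Serping1, the regulator, overlapped between the groups. It was at 347.7, 219.1 and 115.3 normalized counts in WT and at 217.1 and 337.0 in Flox. The highest and the lowest of its 5 values were both in WT (WT replicates 2 and 4, 3.02-fold apart), and the log2 fold change was 0.29 (SE 0.61). It was -0.04 without WT replicate 4 and -0.0694 without Flox replicate 4, so its direction rested on single libraries.

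In all, both Flox libraries lay above all WT libraries in 7 of the 10 genes and below in 0, where 14.9% of all genes with a count lay above and 14.6% below. A call was a DESeq2 adjusted p under 0.05 with a fold change of at least 1.5. By it 7 of the 10 were called higher and 0 lower, where 1.81% of the 15228 genes tested were called higher and 1.46% lower, and since this contrast chose the genes, nothing is read from their count. The median log2 fold change was 1.82 over the 10 genes and -0.0093 over all genes tested. The 7 genes were 1.80 to 2.98 times the WT mean in Flox replicate 2 and 3.36 to 6.95 times in Flox replicate 4, while their WT libraries spread 1.97-fold to 2.39-fold. Flox replicate 4 exceeded Flox replicate 2 in all 10 genes, by 1.55-fold for Serping1 up to 2.53-fold for C1qa. With Flox replicate 4 left out, which left 1 Flox library, the median log2 fold change of the 10 genes was 1.22. Without WT replicate 2 the count called was 1, with an adjusted p for all 10. Without WT replicate 4 it was 3, where only 4 of the 10 had an adjusted p. Over all genes, 145 were called higher without WT replicate 2 and 64 without WT replicate 4.

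Levels of different genes were compared as normalized counts per kilobase of exon. In WT, C4b was the most abundant of the 10 (615.1 ± 69.2, SD, n = 3), followed by C1qa (559.7 ± 180), C1qb (364.9 ± 139), C1qc (166.3 ± 57.2), Serping1 (97.8 ± 50.1), Fcer1g (80.4 ± 31.4), C3 (52.4 ± 6.06) and Fcgr3 (42.6 ± 15.3). Each of these overlapped the next over the 3 libraries. Itgam (6.89 ± 2.77) and C3ar1 (2.83 ± 1.28) came last, clear of Fcgr3 and overlapping each other. In Flox, C1qa (2712 ± 1660, SD, n = 2) and C1qb (1469 ± 752) came above C4b (799.5 ± 332), although neighbours again overlapped, and Fcer1g (372.9 ± 188) came above Serping1 (119.2 ± 36.5).

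Microglia are the known home of most of these genes, so their markers were read in the same libraries. Of 12 microglia markers, 5 were called higher and 0 lower, and their median log2 fold change was 0.845. The share called higher over all genes tested was 1.81%. The called markers were Aif1 (2.24, DESeq2 adjusted p = 0.0307), Tmem119 (1.17, 0.00368), Cx3cr1 (1.15, 0.00393), Olfml3 (0.99, 0.0171) and Csf1r, which had the highest count (0.78, 0.0182). The markers did not move alike, since Sall1 was at 224.4, 195.7 and 251.7 normalized counts in WT and 217.1 and 247.5 in Flox (log2 fold change 0.05) and P2ry12 was at 81.1, 54.0 and 33.6 against 70.1 and 72.6 (0.35). The edgeR test called 1 of the 12, and DESeq2 without WT replicate 2 called 1. With the replicate block DESeq2 called 2, where only 4 had an adjusted p. Without WT replicate 4, 0 of the 12 had an adjusted p, so no call was possible (6 had an unadjusted p under 0.05 in DESeq2). Without Flox replicate 4, which left 1 Flox library, only 3 had an adjusted p. The summed markers were at 1392, 1614 and 1043 in WT and 1969 and 2956 in Flox, a 1.82-fold difference of the means. In pooled tissue RNA, more cells of a type and more RNA per cell cannot be told apart, and for these genes the share carried along with the tagged ribosomes cannot be told apart from either.

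Relative to the microglia markers of the same library, 7 of the genes remained above the WT range in both Flox libraries. The share of all genes that do so on this scale was not computed, so nothing is read from that count. C1qa was at 45.0%, 46.0% and 36.1% of the marker sum in WT and at 81.1% and 136.8% in Flox, a ratio of means of 2.57. Fcer1g was at 5.30%, 5.93% and 3.96% in WT and at 10.6% and 14.97% in Flox, a ratio of 2.53. The ratios of the others were 2.33 for C3ar1, 2.30 for C1qc, 2.19 for C1qb, 1.70 for Fcgr3 and 1.43 for Itgam. The share of C3 was lower, from 19.2%, 14.8% and 28.9% in WT to 12.6% and 14.0% in Flox (a ratio of 0.634). C4b (0.669) and Serping1 (0.678) had lower mean shares with overlapping libraries. The counts of C3, C4b and Serping1 themselves overlapped between the groups, while the mean marker sum they were divided by was 1.82-fold higher in Flox. Among single markers, none had a larger log2 fold change than C1qa, 1 (Aif1) had a larger one than C1qb, C1qc, C3ar1, Fcer1g or Fcgr3, and 2 had a larger one than Itgam. At least 10 of the 12 markers had a larger one than C3, C4b or Serping1. These ratios come from the same contrast as the choice of the genes and are a description.

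**Figure D3:**
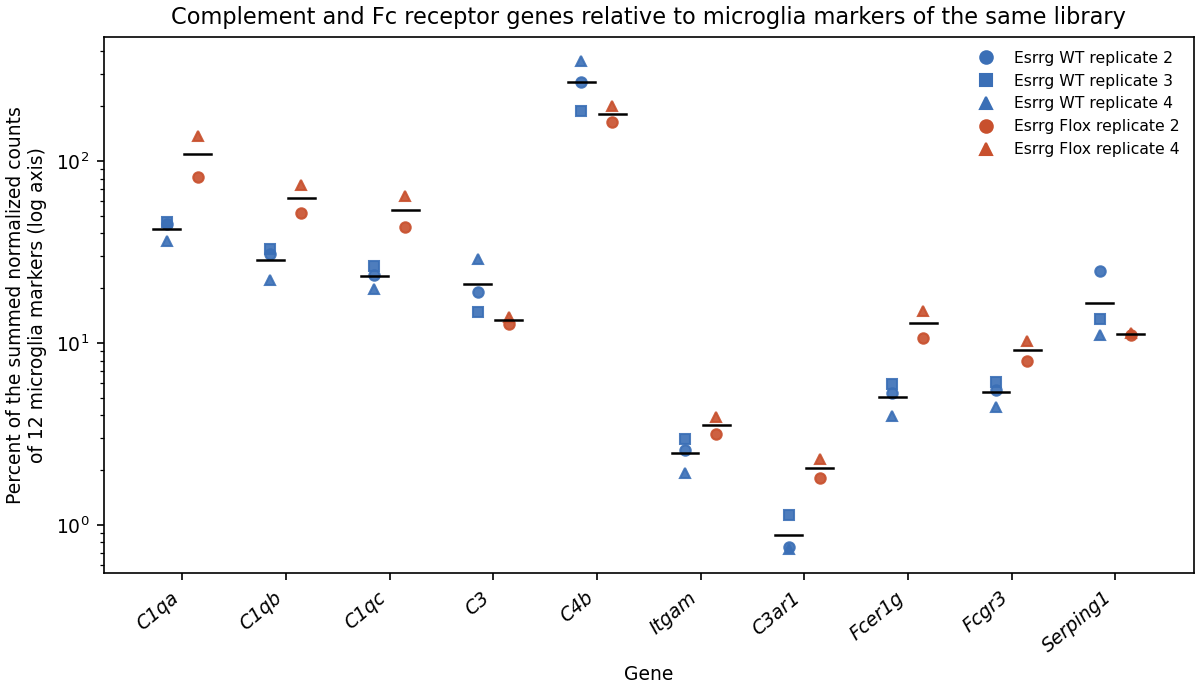
Normalized counts of each of the 10 genes as a percent of the summed normalized counts of 12 microglia markers in the same library (log axis), with symbols for libraries and bars for group means. C1qa lies at 36.1% to 46.0% in WT and at 81.1% and 136.8% in Flox, and C3 lies at 12.6% and 14.0% in Flox, below its WT values.

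Marker sums of some other cell types were also higher in both Flox libraries, and their part in these differences was not tested. The share called higher over all genes tested was 1.81%. Border macrophage markers, led by Stab1, summed to 68.2 to 135.5 normalized counts in WT and to 185.4 and 207.8 in Flox, with 0 of 8 called (2 at an unadjusted p under 0.05 in DESeq2). Neutrophil and monocyte markers summed to 21.1 to 66.2 in WT and to 132.6 and 147.1 in Flox, with 2 of 8 called higher, Plac8 and Ly6c2. The granulocyte genes S100a8, S100a9, Ngp, Camp and Retnlg held only 0 to 5 counts in any library. T and NK cell markers summed to 15.4 to 54.8 in WT and to 156.6 and 305.2 in Flox, with 2 of 7 called higher, Cd8a and Nkg7. In each of these sums both Flox libraries lay above all WT libraries. The 4 B cell markers, led by Cd79a, summed to 2.11 to 11.2 in WT and to 22.1 and 20.9 in Flox, too few for an adjusted p. Ms4a1, which defines B cells, had 0 reads in all WT libraries and only 5 and 1 in Flox replicates 2 and 4. Endothelial markers summed to 112.4 to 247.6 in WT and to 266.1 and 665.1 in Flox, with 3 of 7 called higher, Cldn5, Flt1 and Slco1a4. Cldn5 overlapped between the groups, at 88.4 normalized counts in Flox replicate 2 and 88.7 in WT replicate 3. Flt1 and Slco1a4 were 4.1-fold and 3.2-fold higher in Flox replicate 4 than in Flox replicate 2. The sums of astrocyte markers overlapped between the groups, with 0 of 9 called (1 at an unadjusted p under 0.05 in DESeq2), as did those of mural cells and fibroblasts, led by Col1a2, with 0 of 8 (0 at an unadjusted p under 0.05). In WT replicate 4 the sums for myeloid, T and NK and endothelial markers were the lowest of the 5 libraries, and so were 8 of the 10 complement and Fc receptor genes among the WT libraries.

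The other genes of the complement system were read in the same way. Of 47 listed, 44 had a count, 20 had an adjusted p, 2 were called higher and 0 lower (3 had an unadjusted p under 0.05 in DESeq2), and 16 never exceeded 3 counts in a library. Over all 15228 genes tested, 1.81% were called higher and 1.46% lower. The median log2 fold change of the 20 with an adjusted p was 0.18. Both Flox libraries lay above all WT libraries in 12 of the 44 and below in 4. Of all genes with a count, 14.9% lay above and 14.6% below. The called genes were integrin subunits of complement receptors. Itgb2, the beta chain that pairs with the product of Itgam, was at 44.2, 69.3 and 22.1 normalized counts in WT and 103.7 and 207.8 in Flox, and its log2 fold change was 1.79 (SE 0.43, DESeq2 adjusted p = 0.00178). Itgax, the alpha chain of CR4, was at 23.2, 23.4 and 13.5 against 30.7 and 90.5 (log2 fold change 1.60 with SE 0.54, DESeq2 adjusted p = 0.0408). The 3 genes with the highest counts in WT encode inhibitors of the pathway and were not called, namely Clu (log2 fold change 0.28, DESeq2 adjusted p = 0.30), Susd4 (-0.21, 0.283) and Cd59a (0.15, 0.547). The edgeR quasi-likelihood test called 0 of this list higher (3 had an unadjusted p under 0.05), and DESeq2 called 0 without Flox replicate 4 (1 had) or without WT replicate 4 (3 had, and only 4 had an adjusted p). The count was 1 without WT replicate 2 or WT replicate 3, where Itgax lost its call.

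Among 18 other Fc receptor and related genes, 15 had a count, 8 had an adjusted p and 3 were called higher, all IgG receptors, with 0 lower (4 had an unadjusted p under 0.05 in DESeq2). The share called higher over all genes tested was 1.81%. Fcgr4, an activating receptor that signals through the gamma chain, was at 8.43, 10.2 and 4.80 normalized counts in WT and 36.5 and 98.4 in Flox, which gave a log2 fold change of 3.12 (SE 0.60, DESeq2 adjusted p = 5.21e-05). Fcgr1, the high-affinity receptor, was at 63.2, 82.5 and 38.4 against 104.7 and 192.9 (1.28, SE 0.37, DESeq2 adjusted p = 0.0127). Fcgr2b, the inhibitory receptor, was at 98.0, 86.6 and 97.0 against 103.7 and 281.3 (1.04, SE 0.35, DESeq2 adjusted p = 0.0436), so its difference lay mainly in Flox replicate 4. Fcgrt, which encodes the neonatal Fc receptor that recycles IgG, was higher by less than the fold threshold, at 256.8 to 272.9 against 360.2 and 417.5 (0.56, SE 0.17, DESeq2 adjusted p = 0.0192). Trim21, a cytosolic antibody receptor, was not called (-0.02, DESeq2 adjusted p = 0.982). The edgeR test called 1 of the list, and DESeq2 called 1 without WT replicate 2. With the replicate block DESeq2 called 0, where only 2 had an adjusted p (2 had an unadjusted p under 0.05). Without WT replicate 4, 0 had an adjusted p, so no call was possible (4 had an unadjusted p under 0.05 in DESeq2). Without Flox replicate 4, which left 1 Flox library, only 1 had an adjusted p.

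The adaptors, kinases and phosphatases that act downstream of these receptors formed the next list. Of 16 listed, 15 had an adjusted p, 9 were called higher and 0 lower (12 had an unadjusted p under 0.05 in DESeq2), and the median log2 fold change over those 15 was 1.38. The share called higher over all genes tested was 1.81%. Tyrobp, an adaptor of the same kind as the Fc receptor gamma chain, was at 78.0, 94.8 and 48.0 normalized counts in WT and 201.7 and 423.5 in Flox, with a log2 fold change of 2.09 (SE 0.34, DESeq2 adjusted p = 5.77e-07). Trem2, a lipid receptor that signals through Tyrobp, was at 100.1, 87.6 and 62.5 against 202.7 and 486.1 (2.05, SE 0.33, DESeq2 adjusted p = 5.82e-07). The phosphatases Ptpn6 (1.72) and Inpp5d (1.60), which restrain these receptors, the kinase Lyn (1.38), the exchange factor Vav1 (1.45), the GTPase Rac2 (1.35) and the integrin activator Fermt3 (1.30) were also called, with DESeq2 adjusted p between 0.00194 and 0.0278. Sirpa, an inhibitory receptor that neurons also express, had the highest count and was not called (0.20, DESeq2 adjusted p = 0.308), nor was Plcg2 (-0.19, 0.761). The edgeR test called 2 of the list, and DESeq2 called 5 without WT replicate 2. With the replicate block DESeq2 called 0, where only 2 had an adjusted p (9 had an unadjusted p under 0.05). Without WT replicate 4 DESeq2 called 0, where only 1 had an adjusted p (10 had an unadjusted p under 0.05). Without Flox replicate 4, which left 1 Flox library, only 1 had an adjusted p.

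**Figure D4:**
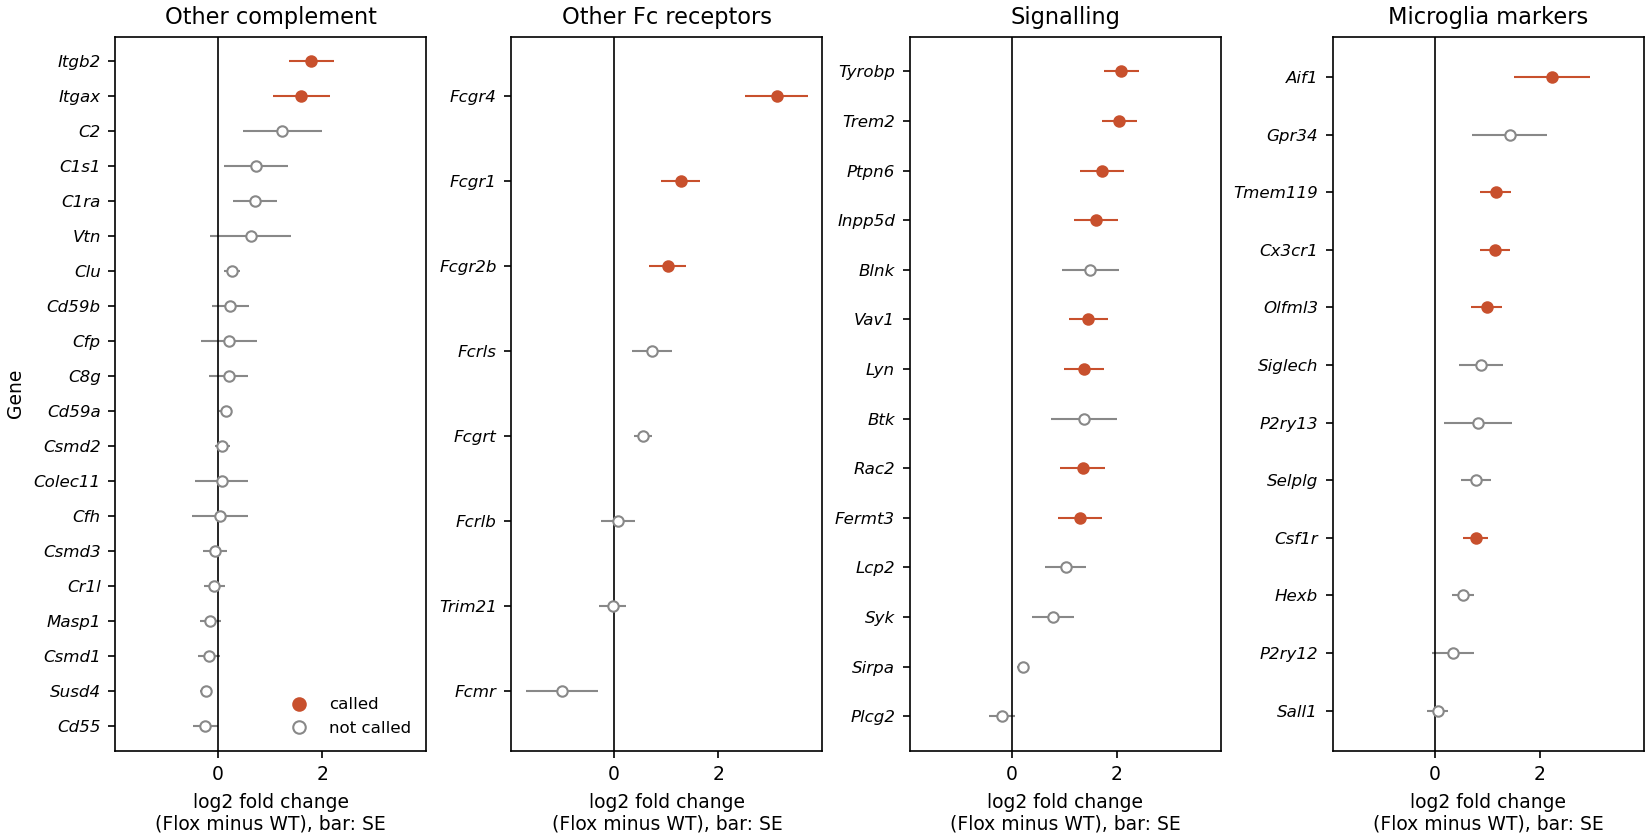
Log2 fold change (Flox minus WT, bars show the SE) of the genes with a DESeq2 adjusted p in 4 lists, namely 20 other complement genes, 8 other Fc receptor genes, 14 of the signalling genes and 12 microglia markers. Filled red points are genes called higher (adjusted p under 0.05 and at least 1.5-fold), 2, 3, 8 and 5 in the respective panels, and the median of the 20 other complement genes is 0.18.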

How the data were processed

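Ribosome-bound RNA of 3 Esrrg WT and 2 Esrrg Flox midbrain pools was sequenced as poly(A)-selected libraries that do not keep strand. The authors trimmed the reads, aligned them with STAR and counted them per gene with HTSeq-count, and the deposited table holds these raw counts, with replicates kept apart. The submitters' processing notes name Trim Galore 0.6.6, STAR 2.7.9a, HTSeq 0.11.3 and GRCm39, whereas the study's methods name GRCm38, so no gene coordinates are given for the counts. Reads that overlapped more than 1 gene (5.62% to 5.78%), aligned to more than 1 place (3.60% to 4.23%) or hit no gene (3.18% to 4.45%) are in no gene's count and were left out.

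Gene names came from GENCODE release M21 by ID (97.0% of IDs matched), as did exon lengths. Counts were fitted with DESeq2 1.42.0 in R 4.3.3 (default size factors, two-sided Wald test, independent filtering, Benjamini-Hochberg adjustment over all 15228 genes with an adjusted p), because the study's methods use it. A call needed an adjusted p under 0.05 and a fold change of at least 1.5. The scripts were tested on simulated data with differences in well-counted genes only, so that test does not cover genes with few reads. Alternatives were edgeR 4.0.16, TMM library sizes, a filter of 10 counts in 2 libraries, the replicate number as a block and leaving out each library. An exact permutation test of 3 against 2 libraries cannot go below 0.1, so none was run. Over all pairs, within and between groups, libraries differed by more than counting noise (chi-square per degree of freedom 4.25 to 45.8). Within groups the value was 4.25 to 16.6 in WT and 20.2 in Flox. The labels do not say whether pools came from separate cohorts, so p-values cover the spread between these samples. Limits from a count of 0 cover counting error only.

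The genes and lists were chosen with earlier results of these data known. Named were all 10 genes, in each pathway list the called genes and the 3 with the highest mean in WT, in each marker list the most abundant gene, the called microglia markers, and Esrrg and Th. Sall1, P2ry12, C4a, Vtn, Fcgrt, Gm49368 and the other genes named from the neutrophil, T cell, B cell and endothelial lists were added after their values were seen. Promoter windows came from RefSeq. Some genes that the rule would name are not reported here.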

Additional observations from a re-analysis of the deposited data

How the results depend on the processing

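The counts of calls depended on the test and on single libraries, and the causes were not tested. Over all genes, 275 were called higher and 222 lower. The edgeR quasi-likelihood test called 111 and 92, and edgeR on all genes with a count, chosen after seeing the data, called 567 higher. DESeq2 with the replicate block called 75 and 134, and leaving out 1 library gave 14 to 436 and 38 to 457. The numbers called higher in the lists (2 other complement, 3 other Fc receptor, 9 signalling and 5 microglia) were 0, 1, 2 and 1 with edgeR, and 1, 0, 0 and 2 with the replicate block. The other complement gene called with the block was Vtn, and neither Itgb2 nor Itgax had an adjusted p there. Leaving out 1 library gave 0 to 3, 0 to 4, 0 to 8 and 0 to 6, lowest without WT replicate 4 or Flox replicate 4. With Flox replicate 4 out, 1 other complement, 1 other Fc receptor, 5 signalling and 3 microglia genes had an unadjusted p under 0.05 in DESeq2. With WT replicate 4 out, only 8003 genes had an adjusted p, against 9963 without Flox replicate 4 and 10320 with the block. In the order of the lists above, 4, 0, 1 and 0 genes had one without WT replicate 4, and 8, 2, 2 and 4 with the block. A group left with 1 library was assumed to vary like the other. Of the 10 complement and Fc receptor genes, 7 were called, and 5 with edgeR. With the block 0 were called, where 7 of the 10 had an adjusted p and 75 genes were called higher over all genes. Nothing is read from these counts of the 10 genes, since the contrast chose them. Without WT replicate 2 the count was 1, and without WT replicate 4 it was 3, where only 4 had an adjusted p. The median log2 fold change of the 10 genes was 1.82, and 1.22 to 2.24 with 1 library left out. The log2 fold change of C3 ranged from -0.12 to 0.61 over these fits, of C4b from -0.13 to 0.75 and of Serping1 from -0.0694 to 0.73 (-0.04 without WT replicate 4), and without Flox replicate 4 that of C1qa was 1.45 and of C1qc 1.41. TMM library sizes and the low-count filter moved no count by over 1.5 times, and the filter ended the call of Fcgr2b, leaving 2 other Fc receptor genes. Of the fits that gave the called list genes an adjusted p, 103 kept the call, 34 lost it and 0 reversed the direction. This tally leaves out every fit in which a gene had no adjusted p. That was so for most of these genes with the block, without WT replicate 4 and without Flox replicate 4. Replicates 2 and 4 occur in both groups, and same-numbered libraries deviated together weakly (r = 0.0932 and 0.0874). With 2 Flox libraries the deviations from their mean mirror each other. These correlations therefore cannot tell whether same-numbered libraries form pairs. Depth limits C3ar1 most, with 8 to 68 reads per library.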
